A study of Homo sapiens with 2 samples.

Results

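The TRIM family of ubiquitin ligases was described across 2 expression arrays of the human esophageal squamous carcinoma line KYSE170-luc. Cells on 1 array had received an empty vector and those on the other a plasmid expressing SOX17, each 12 h before. The line carries luciferase, per the series title, and both arrays share that background. There was 1 array per group, so every difference given here lies between these 2 arrays and carries no p-value, and the spread between cultures was not measured. Members were all genes whose annotated symbol is TRIM followed by digits, with or without a final letter, and which have a probe set paired with that gene alone. This gave 55 genes with 128 probe sets, of 19775 genes with 41091 such probe sets in all. TRIM16L also fits the symbol but is a transcribed pseudogene in RefSeq, and it was left out.

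TRIM proteins share a tripartite motif of a RING finger, B-box zinc fingers and a coiled coil. The RING finger recruits a ubiquitin-loaded E2 enzyme, the coiled coil forms dimers, and the C-terminal end selects the substrate. The family is known for its antiviral members, many of them induced by interferon, and for chromatin cofactors that work with zinc finger repressors and SMAD proteins. TRIM29 is a known marker of basal squamous epithelium.

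A gene was counted as measured when its brightest probe set reached an intensity of 95 on both arrays, which is the 60th percentile of all values. Log2 ratios divide SOX17 by empty vector intensities, and a value above 0 is one higher with SOX17. Of the arrays' probe sets, 39.6% and 40.4% reached 95 on the empty vector and the SOX17 array. The 24 probe sets of the poly-A controls, which are added to the RNA before labelling, had a median log2 ratio of 0.57 and were higher on the SOX17 array on all 24, and the part of this in the ratios below was not tested. The transfected gene gave no check of the labels, because 1 SOX17 probe set read 4.5 with the empty vector and 83.8 with SOX17 and the other read 19.1 and 6.5, all under 95. All 7 squamous markers with a probe set of their own were measured, from 247.5 (KRT5) to 50352.6 (SFN) on the empty vector array. Of 12 leukocyte markers 1 was measured (CD79A at 112.0 and 96.9), of 8 fibroblast markers 1 (COL1A1 at 780.2 and 845.1) and of 6 endothelial markers 0. The median log2 ratio of the 7 squamous markers was 0.06, and -0.03 after quantile normalization.

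Of the 55 TRIM genes 35 were measured on both arrays, 3 reached 95 on the SOX17 array alone and 17 lay below it on both. Of the 35 measured members 24 differed by less than 1.2-fold, a share that was not taken over all measured genes. TRIM22 and TRIM69 were past 2-fold, both higher with SOX17, 2 of 35 members (5.71%) against 0.419% of all 10034 measured genes. TRIM65, TRIM21 and TRIM45 joined them at 1.5-fold, which made 5 of 35 (14.3%) against 3.78% of all measured genes. Members were chosen with earlier results of these data known, so these shares are not independent evidence of a difference. No measured member was 2-fold lower on the SOX17 array, where 0.329% of all measured genes were, and none was 1.5-fold lower, against 3.19%. Above 0 lay 22 members (62.9%), against 54.6% of all measured genes, and the members' median log2 ratio was 0.05 against 0.03.

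**Figure D1:**
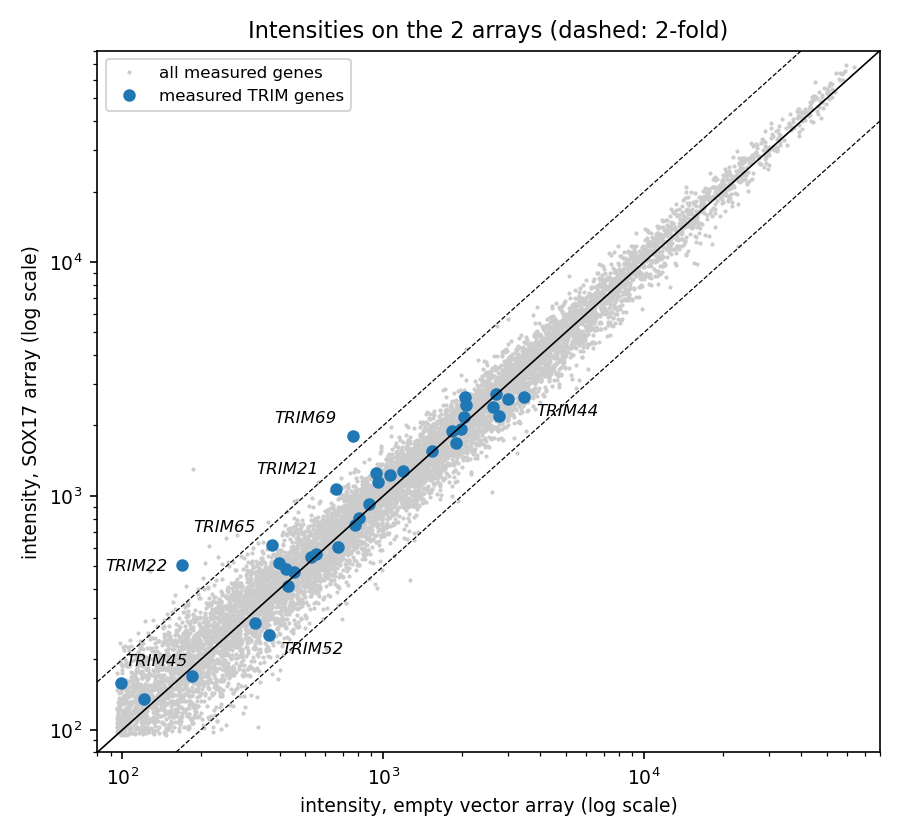
Intensity of each measured gene on the empty vector array (x axis) and the SOX17 array (y axis), both on log scales, with grey points for all 10034 measured genes and blue points for the 35 measured TRIM genes. The solid line marks equal values and the dashed lines 2-fold. TRIM22 and TRIM69 lie above the upper dashed line, and no TRIM gene lies below the lower one.

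A measure of error came from probe sets of the same gene. In 4574 genes more than 1 probe set was measured, and a single log2 ratio had an SD of 0.30 around its gene's mean. By the gene's level it was 0.37 in the lowest tertile of measured genes, 0.32 in the middle and 0.26 in the highest. Over the 16 TRIM genes with several measured probe sets it was 0.27. This SD covers differences between probe sets of the same arrays only, so it sets a scale for a ratio and is no test of SOX17. The ratios of TRIM22, TRIM69 and TRIM21 were more than 2 such SDs from 0 at their level, and no other measured member's was. TRIM21 lay at 2.24 SDs and TRIM65 just short of the limit, at 1.97. How many of all measured genes pass 2 SDs was not counted.

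The interferon-induced TRIM genes held the 2 highest ratios. In bulk RNA a change in few cells and a small change in all cells cannot be told apart. TRIM22, which restricts retroviral transcription, read 169.4 with the empty vector and 505.5 with SOX17 (2.98-fold, log2 ratio 1.58). It has 1 probe set, whose ID ends in _s_at, a suffix for probes that can match several transcripts. TRIM69, an inhibitor of vesicular stomatitis virus, read 767.3 and 1808.6 (2.36-fold, 1.24). Its remaining probe sets read 55.8 and 130.5 (1.23) and 28.7 and 13.6 (-1.08). The first of these ran the same way with its lower value under 95, and the second was under 95 on both arrays. TRIM21, the cytosolic antibody receptor, read 656.2 and 1072.9 on its only probe set (1.64-fold, 0.71).

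Smaller positive ratios belonged to 3 further antiviral members. TRIM5, which binds incoming retroviral capsids, read 936.4 and 1249.1 (0.42), while its dimmer probe set read 70.2 and 32.0, under 95 on both arrays. TRIM14, a mitochondrial adaptor of the MAVS pathway that lacks a RING finger, read 2049.6 and 2649.4 (0.37), and its other measured probe set read 369.3 and 420.0 (0.19). TRIM6, which builds free ubiquitin chains in interferon signalling, read 958.0 and 1148.8 (0.26). Each of these differences was smaller than 2 SDs of 1 ratio.

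The other 4 measured genes of the list were nearly equal on the arrays. TRIM25, the ligase of the RNA sensor RIG-I, read 2703.3 and 2728.8 (0.014), with a dimmer probe set at 166.8 and 129.9 (-0.36). TRIM56, an antiviral ligase of the STING pathway, read 551.9 and 566.3 on its brighter probe set, and TRIM26, which targets nuclear IRF3, read 809.8 and 805.4. TRIM38, a brake on inflammatory signalling, read 877.8 and 920.0 (0.07), but its 4 measured probe sets ranged from -0.26 to 0.46. TRIM31 lay below 95 on both arrays.

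Together 9 of the 10 measured interferon-induced members lay above 0, with a median of 0.32, against 54.6% of all measured genes and their median of 0.03. The number above 0 was 8 when ratios were centred and 10 after quantile normalization or loess. Without TRIM22 and TRIM69 the median of the other 8 was 0.16, with 7 above 0. The 25 measured members outside the list had 13 above 0 and a median of 0.014, which turned to -0.02 when ratios were centred. TRIM22 and TRIM69 were known to be high on the SOX17 array when this list was drawn up, so it is not independent evidence of its direction.

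**Figure D2:**
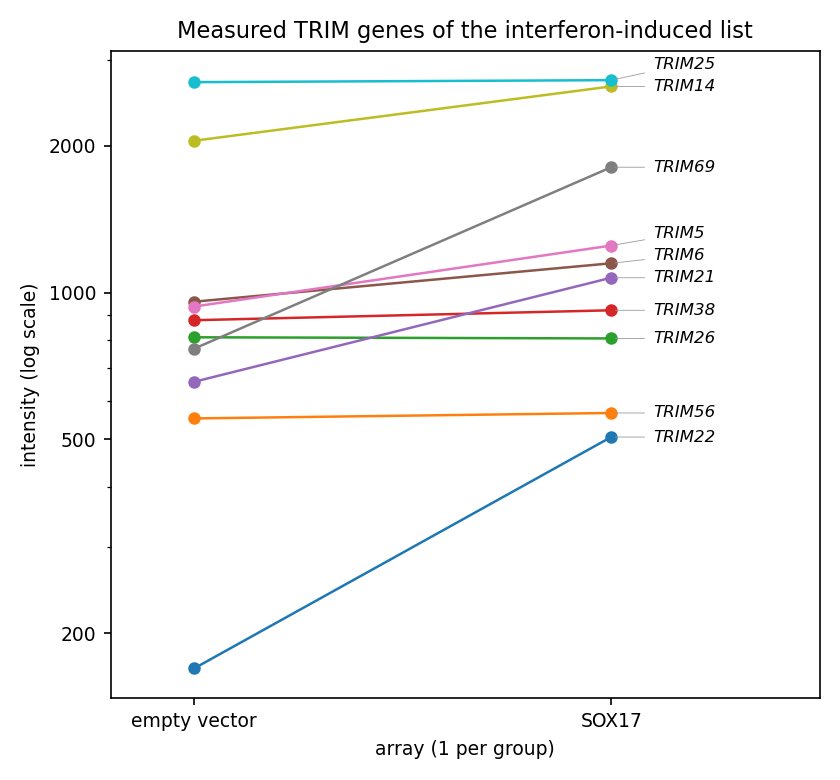
Intensity (log scale) of the 10 measured TRIM genes of the interferon-induced list on the empty vector and the SOX17 array, 1 line per gene and 1 array per group, so there are no error bars. TRIM22 (169.4 to 505.5) and TRIM69 (767.3 to 1808.6) have the steepest lines, followed by TRIM21, and TRIM25, TRIM26 and TRIM56 are nearly flat.

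The promoters of the TRIM genes were searched for the core of the interferon-stimulated response element, the site of IRF and STAT complexes. The letters were GAAANNGAAA, on both strands, in the 250 bases before each RefSeq start (GRCh38.p14). Of the 55 members 43 had an entry, and 7 of these (16.3%) held the motif at 1 or more starts, against 3.71% of 27305 genes. TRIM22 is among the 12 members with no entry. The 5 stretches below are the 100 bases before the start of the members whose match lies within that distance, with the match in capitals, and they are shown because they set genes of high and of low ratio side by side.
TRIM69 (chr15:44736428-44736527, plus strand): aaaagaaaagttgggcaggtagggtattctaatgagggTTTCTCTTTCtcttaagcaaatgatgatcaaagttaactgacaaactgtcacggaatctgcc
TRIM5 (chr11:5685075-5685174, minus strand): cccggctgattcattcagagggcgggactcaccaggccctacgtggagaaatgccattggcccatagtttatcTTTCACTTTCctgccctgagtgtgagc
TRIM14 (chr9:98119223-98119322, minus strand): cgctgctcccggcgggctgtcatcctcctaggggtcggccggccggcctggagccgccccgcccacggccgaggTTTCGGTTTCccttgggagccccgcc
TRIM16 (chr17:15682952-15683051, minus strand): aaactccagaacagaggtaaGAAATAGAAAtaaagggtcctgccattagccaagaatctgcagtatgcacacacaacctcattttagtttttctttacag
TRIM44 (chr11:35662675-35662774, plus strand): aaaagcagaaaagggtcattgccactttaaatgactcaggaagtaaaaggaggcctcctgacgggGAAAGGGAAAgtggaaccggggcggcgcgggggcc

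The match began 62 bases before the start in TRIM69, 27 in TRIM5, 26 in TRIM14, 80 in TRIM16 and 35 in TRIM44. The log2 ratios of these genes ran from 1.24 (TRIM69) over 0.42, 0.37 and 0.014 to -0.39 (TRIM44), on both sides of 0. TRIM21 (0.71) and TRIM65 (0.73) have entries and held no match. The same was true of TRIM6, TRIM25, TRIM38 and TRIM56 of the interferon-induced list. TRIM26 held 2 overlapping matches that began 194 and 188 bases before its start, and TRIM2 held 1 match 217 bases before 1 of its starts. Their ratios were near 0 and -0.15. The core bound by SOX factors, ACAAT on either strand, was found in 10 of the 43 members (23.3%) against 28.8% of all genes. Of the 24 measured members with an entry 3 held it (TRIM2, TRIM56 and TRIM62), with ratios of -0.15, 0.04 and 0.17. A match describes letters and is no evidence of binding.

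Members that act on viral RNA and DNA sensing, a list that overlaps with the interferon-induced one, had 15 of 17 genes measured, with a median of 0.09 against 0.03 for all measured genes. Above 0 lay 12 of the 15 (80%), against 54.6%, and 11 when ratios were centred. Among the 12 are TRIM6, TRIM14, TRIM21, TRIM25, TRIM38 and TRIM56, which the interferon-induced list had already counted. TRIM65, the ligase of the RNA sensor MDA5, read 373.7 with the empty vector and 618.2 with SOX17 (1.65-fold, 0.73). Only 1 of its probe sets was measured, with an _x_at ID, a suffix for probes that can bind other genes. TRIM41, which targets viral nucleoproteins, read 397.0 and 517.3 (0.38). TRIM4, a RIG-I ligase, read 322.4 and 286.1 (-0.17), with 3 measured probe sets from -0.22 to 0.37. TRIM32, known for its mutation in a limb-girdle muscular dystrophy, read 1828.2 and 1890.8, and its 2 probe sets lay at 0.05 and 0.14. TRIM13, anchored in the endoplasmic reticulum, read 1184.5 and 1272.2 (0.10) on its brighter probe set and 226.8 and 196.7 (-0.21) on the other measured one. TRIM27, first known as the RET finger protein, had 3 measured probe sets between -0.14 and 0.14. TRIM40 lay at 3.3 on both arrays, far under the floor. The ratio of TRIM65 was 1.97 SDs of 1 ratio at its level, so it did not pass 2 SDs. The RIG-I ligases TRIM25 and TRIM4 each differed by less than 1.2-fold on the brightest probe set. Whether the ligases of the 2 sensors differ was not tested.

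The remaining PRY-SPRY proteins, which recognise their substrates through a B30.2 fold, lay closer to 0. The class as a whole had 20 of 27 members measured, 16 of them (80%) above 0, against 54.6% of all measured genes, and a median of 0.13 against 0.03. It holds 9 of the 10 measured genes of the interferon-induced list, TRIM22 and TRIM69 among them. The other 11 had 8 above 0 and a median of 0.06. TRIM68, a coactivator of the androgen receptor, read 423.8 and 486.2 (0.20). TRIM62, a regulator of epithelial polarity, read 120.9 and 135.9 (0.17), while a dimmer probe set read 55.3 and 135.5, its lower value under 95. TRIM35 (453.5 and 471.7), TRIM47 (527.9 and 547.0) and TRIM16 (1535.7 and 1550.5) were within 1.2-fold, as was TRIM7, a partner of glycogenin, at 1896.7 and 1678.9 (-0.18). TRIM11 read 429.4 and 413.2 (-0.06) on its brighter probe set and 219.0 and 144.1 (-0.60) on the other.

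**Figure D3:**
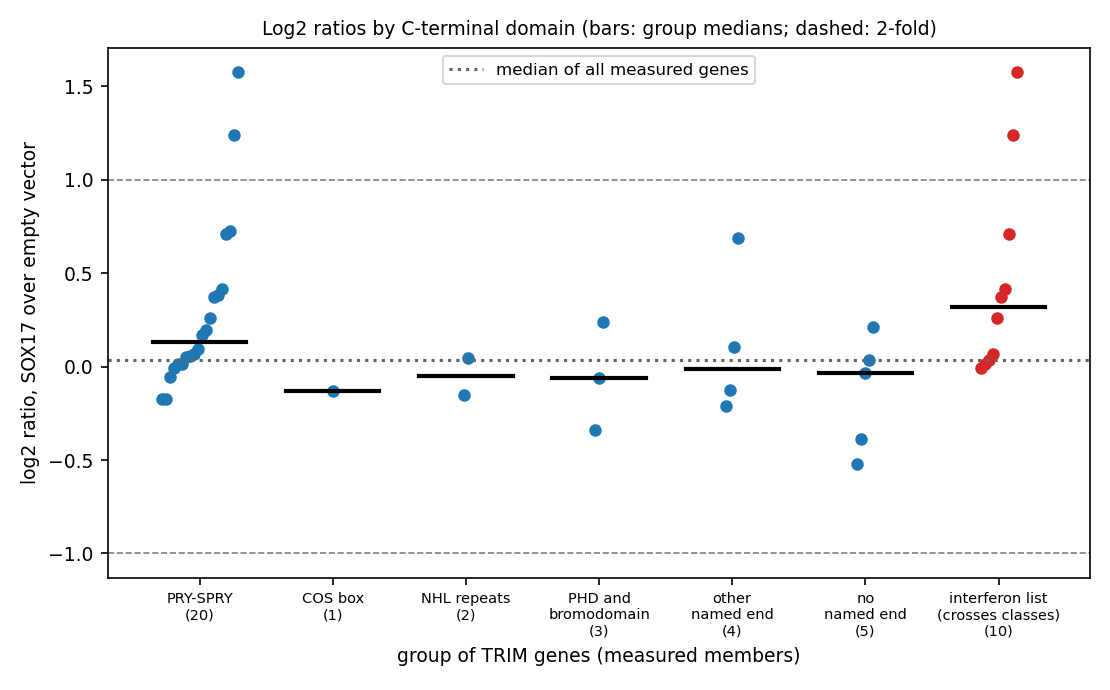
Log2 ratio of each measured TRIM gene (points) by the C-terminal domain of its protein, with the number of measured members below each group and black bars at the group medians. The dotted line is the median of all measured genes (0.03) and the dashed lines mark 2-fold. The PRY-SPRY class reaches from -0.18 to 1.58, and the interferon list, which crosses the classes, has the highest median (0.32).

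Of the 4 chromatin cofactors of the TIF1 group 3 were measured, and they lay on both sides of 0 with a median of -0.06. TRIM28, the corepressor of KRAB zinc finger proteins, read 2075.0 with the empty vector and 2447.7 with SOX17 (0.24) on its only probe set. TRIM33, a ligase and partner of SMAD4, read 2768.4 and 2190.9 (-0.34), and all 3 of its measured probe sets lay below 0, from -0.37 to -0.16. TRIM24, a cofactor of nuclear receptors, read 778.5 and 747.4 (-0.06), with its other measured probe set at -0.04. TRIM66 reached 95 on the SOX17 array only, at 60.2 and 132.1. None of the 3 measured ratios exceeded 2 SDs. The 15 partner genes of these cofactors on chromatin, all measured, had 5 above 0 (33.3%, against 54.6% of all measured genes) and a median of -0.08 against 0.03. Their largest ratios were those of the deacetylase HDAC1 (0.31), the signal transducer SMAD3 (0.26), the remodelling ATPase CHD4 (-0.23) and MORC2 (0.18), and for SMAD3, CHD4 and MORC2 another probe set had the opposite sign.

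Among members with other ends or none, TRIM45, which has a filamin domain, had the highest ratio. It read 98.5 on the empty vector array, just above the floor, and 158.5 on the SOX17 array (1.61-fold, 0.69), and its other probe set read 63.4 and 109.2. TRIM37, a ligase of centrosomes and peroxisomes, read 3012.5 and 2602.7 (-0.21), but 359.7 and 445.7 (0.31) on the other probe set. TRIM59, a membrane protein, read 2627.8 and 2407.7 (-0.13), and TRIM8, a ligase of the TAK1 kinase, read 1977.3 and 1931.9. The 4 members with another named end, all measured, had a median of -0.01, which turned to 0.0062 after loess and 0.018 after quantile normalization. Of the 8 with no named end 5 were measured, 2 of them above 0 (40%, against 54.6% of all measured genes), with a median of -0.03.

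The lowest ratios of all measured members were those of TRIM52 and TRIM44. TRIM52, which has an unusually long RING finger, read 365.0 with the empty vector and 254.5 with SOX17 (-0.52), and 121.6 and 67.2 on its other probe set, whose lower value was under 95. TRIM44, which lacks a RING finger and carries a zinc finger of deubiquitinases, read 3469.7 and 2652.1 (-0.39), and its second measured probe set read 1533.9 and 1177.8 (-0.38). The 2 probe sets of TRIM44 gave nearly the same ratio, yet neither gene reached 2 SDs of 1 ratio at its level. Of the 5 members known to lack a RING finger, TRIM44, TRIM14, TRIM16 and TRIM29 were measured, with a median of 0.11. Above 0 lay 3 of the 4, against 54.6% of all measured genes, and 2 when ratios were centred.

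TRIM29, the basal squamous member, read 1065.0 and 1233.8 (0.21) on its brightest probe set, and a dim one read 104.1 and 189.8 (0.87). TRIM2, a neuronal ligase of the NHL class, had 3 measured probe sets, all lower on the SOX17 array. They ranged from -0.15 on the brightest (671.8 and 605.6) to -0.92 on the dimmest (220.0 and 116.6), so a ratio past 1.5-fold was seen on the dimmest alone. Of the 4 NHL genes 2 were measured, TRIM2 and TRIM32, with a median of -0.05. TRIM46, known from the axon initial segment and the 1 measured gene of 8 for proteins with a COS box, read 184.7 and 169.0 (-0.13).

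Probe sets of the same gene did not always run the same way. Of the 16 members with several measured probe sets 10 had ratios of 1 sign, 4 all higher and 6 all lower on the SOX17 array, and 6 had both signs. The same counts were not made over all 4574 genes with several measured probe sets, so they mark no trait of the family. The 6 were TRIM4, TRIM13, TRIM25, TRIM27, TRIM37 and TRIM38. The 4 with all ratios higher were TRIM14, TRIM29, TRIM32 and TRIM56, and the 6 with all lower were TRIM2, TRIM8, TRIM11, TRIM24, TRIM33 and TRIM44. Each of the 5 members past 1.5-fold rests on 1 measured probe set, so none of those ratios was repeated on a second probe set above the floor.

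**Figure D4:**
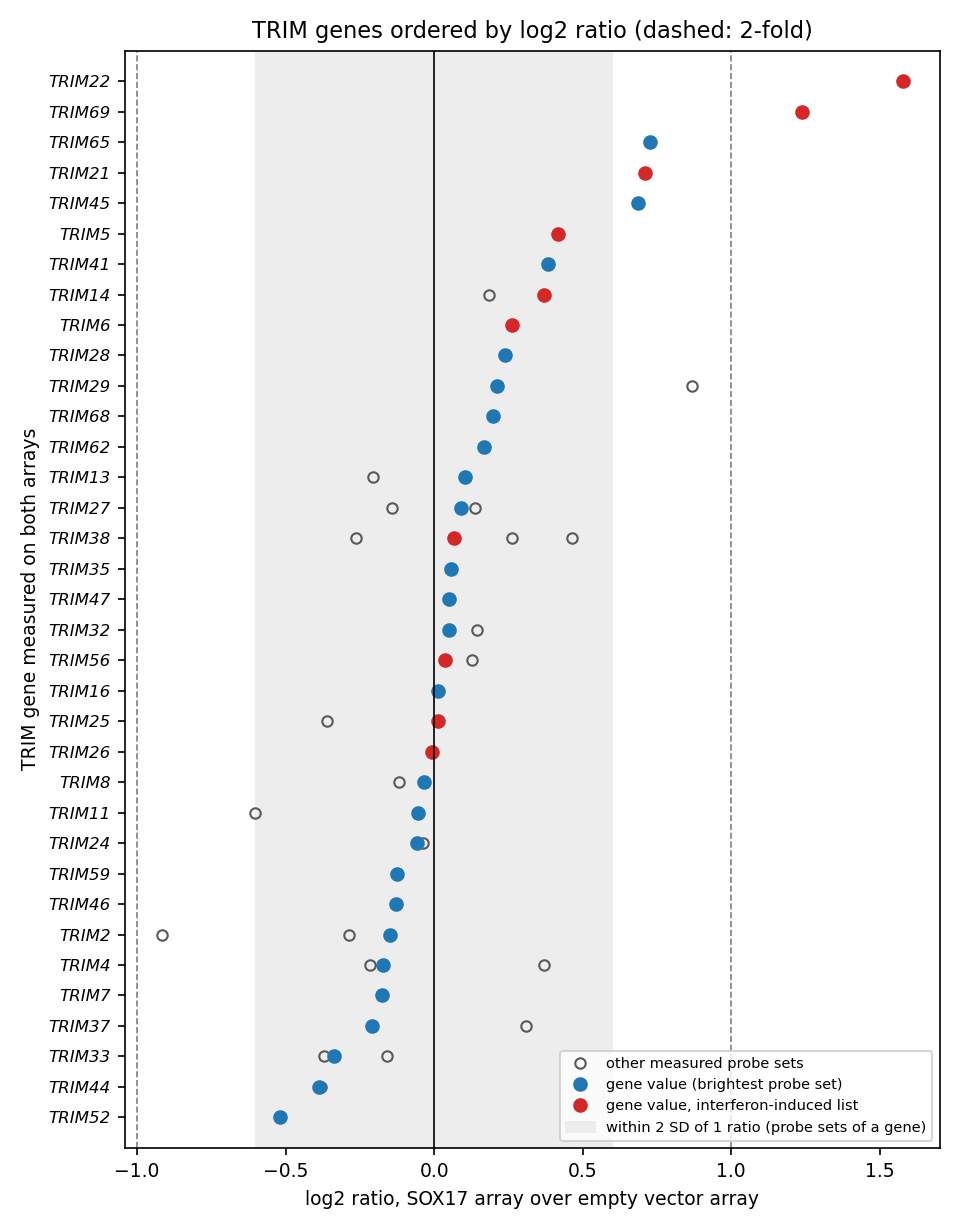
Log2 ratio (x axis) of the 35 measured TRIM genes (y axis), ordered by value. Filled points are the gene's brightest probe set, red for the interferon-induced list, open points are its other measured probe sets, and the grey band spans 2 SDs (0.60) of 1 ratio over all genes with several measured probe sets. TRIM22, TRIM69, TRIM65, TRIM21 and TRIM45 lie to the right of the band, and no filled point lies to its left. By the larger SD at their own level TRIM65 (1.97 SDs) and TRIM45 (1.86 SDs) do not pass 2 SDs.

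Members at or under the floor get no fold. TRIM3 (59.6 and 121.9), TRIM66 and TRIM67 (82.1 and 105.8) reached 95 on the SOX17 array alone. The 17 below it on both arrays ranged from 2.4 to 93.8. They were the muscle proteins TRIM54, TRIM55, TRIM63 and TRIM72, the neuronal TRIM9, and TRIM10, TRIM15, TRIM17, TRIM31, TRIM36, TRIM40, TRIM42, TRIM50, TRIM51, TRIM58, TRIM61 and TRIM71. Of these 12 read higher on the SOX17 array, against 57.5% of the 8579 genes below the floor on both arrays. One dim probe set of TRIM10 reached 100.3 on the empty vector array and read 19.3 on the SOX17 array.

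Genes that work with TRIM ligases were taken from fixed lists. Of 24 listed ubiquitin, E1 and E2 genes 14 had a probe set of their own, and UBE2D1, UBE2D2 and UBE2D3 did not. All 14 were measured, and 10 lay above 0 (71.4%, against 54.6% of all measured genes), with a median of 0.06. The number above 0 was 9 after centring or quantile normalization and 8 after loess, with a median of 0.03 in each. At least 1.5-fold higher was 1 of the 14 (7.14%), against 3.78% of all measured genes. This was UBE2L6, the interferon-induced E2 of ISG15, at 415.3 and 647.5 (0.64) on 1 probe set. UBA6, an E1, lay at -0.53 with 4 probe sets from -0.59 to 0.19, the E2 UBE2D4 at 0.35 with 4 from -0.22 to 0.35, and the main E1, UBA1, at -0.32. A further list joined the RIG-I-like receptor pathway with the DNA sensor CGAS and its adaptor STING1. Of its 13 measured genes 6 lay above 0 (46.2%, against 54.6%), with a median of -0.05, and without CGAS and STING1 it was 5 of 11 with the same median. None of the 13 was 1.5-fold higher and 1 was 1.5-fold lower, against 3.78% and 3.19% of all measured genes. The gene that was lower was the signalling ligase TRAF6, at 460.5 and 284.0 (-0.70, and -0.40 on its other probe set). STING1 lay at 0.56 (123.2 and 181.3), the transcription factor IRF7 at 0.55 (252.8 and 371.2) and the kinase TBK1 at -0.41. RIGI, the target of TRIM25, read 13619.3 and 14724.7 (0.11), with 3 measured probe sets from -0.04 to 0.28. Of 6 TRIM-fold genes under other symbols 4 were measured, with PML at 0.11, MID1 at 0.02, MID2 at -0.56 (372.0 and 252.7) and the pyrin gene MEFV at -0.33, the last near the floor. The 5 measured probe sets of PML ranged from -0.19 to 0.13, and the 2 of MID1 lay at -0.31 and 0.02.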

How the data were processed

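RNA of 2 KYSE170-luc samples, 1 per group, was measured on Affymetrix arrays with biotinylated cRNA, per the labels' protocols. The authors deposited linear intensities, 1 for each probe set on each array, and GCOS is the tool named in the submitters' processing notes. Its algorithm and settings are not given in the sources used here. After trimming 2% of values at each end both arrays have a mean of 499.9, so they had been scaled alike, and the deposited intensities were used unchanged. Of 54675 probe sets 62 are controls, 41091 pair with 1 gene, 1801 with several and 11721 with none by GEO's annotation of the platform. The annotation's symbols matched RefSeq's for the members.

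The floor, folds and SDs are as the results state them. With no replicate there is no test, and precision is limited by having 1 array per group. Each measured member is named with values. Of the other lists, up to 4 genes with the largest absolute ratio are named, and RIGI, named beside TRIM25, was chosen after its values were seen. Members and lists were chosen with earlier results of these data known. Alternatives were centring, quantile normalization, loess (span 0.4), no floor or one at the 50th or 75th percentile, each gene's mean ratio in place of its brightest probe set, leaving out IDs ending in _x_at or _s_at, and 1.5-fold and 3-fold thresholds. Promoters are RefSeq's (GRCh38.p14). Python 3.11.15, numpy 2.4.6, pandas 2.3.3 and statsmodels 0.14.6 were used, and the computation was tested on simulated data.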

Additional observations from a re-analysis of the deposited data

How the results depend on the processing

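TRIM69 stayed past 2-fold under each alternative except the 3-fold threshold, at which 0 members were left. At 1.5-fold 5 members were higher. The count of members 2-fold higher was 10 of 55 with no floor. With the floor at the 50th percentile it was 4 of 40 (with TRIM3 and TRIM66), against 1.11% of all 11310 genes measured there. With the floor at the 75th percentile it was 1 of 29, against 0.0926% of 7562 genes. It was also 1, of 26 members, when IDs ending in _x_at or _s_at were left out, against 0.50027% of 7396 genes. In both of the latter TRIM22 was not measured. With no floor 14.2% of all genes were 2-fold higher, and each added member lay under 95 on at least 1 array. The count of members 2-fold lower was 0 under all alternatives. The members' median lay between 0.018 (centred on the median of all measured genes) and 0.17 (no floor). With no floor the median of all genes was 0.076. Under centring, quantile normalization and loess the 15 values of TRIM21, TRIM22, TRIM45, TRIM65 and TRIM69 moved by at most 0.04. The floors could not move them, since the brightest probe set is taken at each floor. The mean ratio could not either, since each gene rests on 1 measured probe set. Some alternatives removed genes instead. Besides TRIM22, TRIM45 was not measured with the floor at the 75th percentile, and TRIM65 was not without _x_at and _s_at IDs. No paired analysis was possible because each group has 1 array, and for the same reason no replicate could be left out.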

Other observations

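Neighbours of the members with the highest ratios were looked at after the values had been seen. TRIM69 lies next to B2M, the light chain of MHC class I, in RefSeq's gene order, and B2M read 35981.8 with the empty vector and 39448.6 with SOX17 (log2 ratio 0.13). EIF3J and SPG11, on the far side of B2M, lay at -0.29 and 0.18. TRIM22 stands in a row with TRIM5, TRIM6 and TRIM34, of which TRIM5 (0.42) and TRIM6 (0.26) were higher on the SOX17 array by less. TRIM65 adjoins TRIM47 (0.05) and MRPL38 (0.09), and 2 genes away on either side WBP2 read 338.8 and 462.4 (0.45) and FBF1 260.3 and 317.2 (0.29). UNK, 4 genes away, lay at -0.03.

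Another 13 probe sets are paired with several genes of which at least 1 is a TRIM gene, so their values belong to no single gene. Of these 4 reached 95 on both arrays, with log2 ratios from -0.08 to 0.50.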
